A study of Caenorhabditis elegans with 2 samples.

Results

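Small heat-shock proteins are the ATP-independent chaperones of the cell, and *C. elegans* carries a group of them besides the heat-inducible *hsp-16* genes. The genes described here are the 8 members outside the *hsp-16* group, namely *hsp-12.1*, *hsp-12.2*, *hsp-12.3*, *hsp-12.6*, *hsp-17*, *hsp-25*, *hsp-43* and *sip-1*, taken by gene symbol from a table of 18510 genes, in which all 8 were found. All 8 carry the alpha crystallin/Hsp20 domain in the deposited annotation, as do 17 genes of the table in all, of which 5 belong to the *hsp-16* group and 4 are named by other symbols. In aged nematodes given the abalone octapeptide AbaPep#07, 2 neighbouring genes of the smallest class, *hsp-12.3* and *hsp-12.6*, were 3.52-fold and 3.00-fold lower than in untreated nematodes. The other 6 genes differed by less than 2-fold, with the abundant *sip-1* and *hsp-12.2* on the lower side and *hsp-17* and *hsp-25* on the higher side.

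RNA was measured in 2 libraries of wild-type N2 nematodes, both grown in liquid S medium on *E. coli* NA22 and collected at Day 10 of adulthood. The AbaPep#07 library came from nematodes given 2 mM of the peptide from the L4 larval stage, and the Control library from nematodes left untreated (0 mM). The paper's liquid assays of survival, behaviour and life span also contained the drug FUDR, and some of them ampicillin. Its RNA sequencing methods do not say whether these cultures did. The estimated reads summed to 19241145 in the AbaPep#07 library and 19409907 in the Control library. With 1 library per condition there was no replicate check, so each difference below is one between these libraries, and the 95% intervals cover counting error only, PCR copies not being told apart from separate molecules. Because whole nematodes were used, fewer cells of a type and less RNA per cell cannot be told apart.

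Small heat-shock proteins share a central alpha crystallin domain flanked by variable ends, and they bind partly unfolded proteins and keep them from clumping. The bound proteins are then released and refolded by the ATP-driven Hsp70 machinery, with Hsp40 and Hsp110 as its partners. In *C. elegans* the *hsp-16* genes are switched on strongly by heat through the heat shock factor HSF-1, whereas several genes of the group described here are made in unstressed tissues as part of development. The HSP-12 proteins are unusually short, with little beyond the alpha crystallin domain, and show little chaperone activity in the test tube. In contrast, SIP-1 is an active chaperone of oocytes and embryos, HSP-17 has been found to favour protein aggregation, HSP-25 sits at the dense bodies and M-lines of body wall muscle, and HSP-43 is made in the epidermis and reproductive tract.

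The structure of the genes follows this division on WBcel235 (Ensembl release 115). The adjacent genes *hsp-12.3* (chromosome IV, 9444791 to 9445507) and *hsp-12.6* (chromosome IV, 9446229 to 9447228) lie 721 bases apart on the minus strand. Their coding sequences of 327 and 330 bases are close in length to those of *hsp-12.2* (chromosome III, 8138077 to 8139631, plus strand), with 330 bases, and *hsp-12.1* (chromosome I, 10581538 to 10582615, minus strand), with 327 or 336 bases. The coding sequence is 477 bases in *sip-1* (chromosome III, 10506106 to 10506801) and 444 or 447 bases in *hsp-17* (chromosome V, 8384799 to 8385929), both on the minus strand. The longest are *hsp-25* (chromosome X, 6034463 to 6039644), with 4 annotated transcripts and 324 to 657 coding bases, and *hsp-43* (chromosome X, 6233151 to 6235543), with 2 transcripts and 1104 or 1179 coding bases, again on the minus strand. As deposited, the estimated reads of all 8 genes were exactly whole numbers in both libraries, with no tolerance allowed, whereas those of 2249 genes of the table were not, as happens where the counting program divides reads among similar genes.

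The largest falls by ratio among the 8 genes were those of *hsp-12.3* and *hsp-12.6*. The gene *hsp-12.6*, a known target of the FOXO factor DAF-16 and a contributor to normal life span, had 136 reads (14.6 FPKM, a level corrected for the length of the transcript and the depth of the library) in the AbaPep#07 library and 403 reads (43.8 FPKM) in the Control library. Its log2 FPKM ratio was -1.59, and the ratio of reads scaled by library total was 0.340 with an interval of 0.278 to 0.414. Its neighbour *hsp-12.3* had 66 reads (9.03 FPKM) with AbaPep#07 and 228 reads (31.8 FPKM) in Control. The log2 FPKM ratio was -1.82 and the reads ratio 0.292, with an interval of 0.219 to 0.386. Both intervals lay wholly below a ratio of 0.5, and they overlapped, so the falls of the pair could not be told apart by their counts. Among the 11002 genes with at least 100 reads over both libraries, *hsp-12.3* had the 30th lowest FPKM ratio and *hsp-12.6* the 38th lowest.

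These were the only members that passed both thresholds of the study, a 2-fold difference in FPKM in either direction and a false discovery rate (FDR) no higher than 0.05 in PossionDis, the test of Audic and Claverie on the reads of 2 libraries. The FDR over all genes was 2.06e-20 for *hsp-12.3* and 1.14e-29 for *hsp-12.6*. By the same rule 2 of 8 members were called lower and 0 higher, where 1.43% of all genes were called lower and 2.10% higher. The test allows for Poisson sampling alone and takes no account of variation between cultures. When cultures were assumed to vary with a coefficient of variation of 0.2 (edgeR's exact test), *hsp-12.3* had an adjusted p of 0.0374 and *hsp-12.6* an adjusted p of 0.0827, and with 0.4 neither was called.

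**Figure D1:**
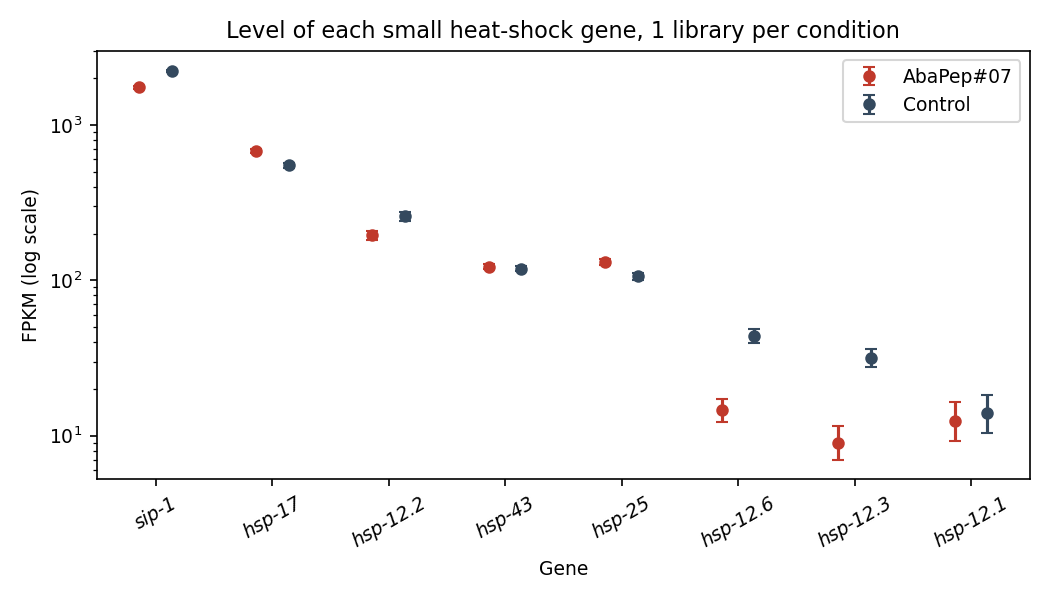
Level of each of the 8 genes as FPKM on a log axis, with AbaPep#07 and Control side by side; points are the single library of each condition and bars the exact 95% Poisson interval of its reads. The gap is widest for *hsp-12.6* (14.6 and 43.8 FPKM) and *hsp-12.3* (9.03 and 31.8 FPKM), whereas *hsp-43* and *hsp-12.1* have overlapping bars.

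The genes next to the pair did not pass the thresholds. On the side of *hsp-12.3*, F38E11.9 lies 750 bases away (RefSeq positions) and had 121 reads with AbaPep#07 and 160 in Control, a ratio of 0.763 with an interval of 0.597 to 0.972 and an FDR of 0.0847. On the side of *hsp-12.6*, the cuticlin-like gene *cutl-17* lies 1896 bases away and had 23 reads with AbaPep#07 and 20 in Control, giving 1.16 as the ratio and 0.609 to 2.23 as its interval. The reads of *cutl-17* were too few to exclude a 1.5-fold difference in either direction, and F38E11.9 also lay below a ratio of 1.

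Lower by a smaller amount were *sip-1* and *hsp-12.2*. The oocyte and embryo chaperone gene *sip-1*, the most abundant of the 8, had 11914 reads (1744 FPKM) with AbaPep#07 and 14815 reads (2214 FPKM) in Control. Its log2 FPKM ratio was -0.34, and its reads ratio of 0.811 (0.792 to 0.831) passed the FDR threshold (3.95e-63) but not the fold threshold. The gene *hsp-12.2*, of the same short class as the pair above, had 786 reads (195 FPKM) with AbaPep#07 and 1001 reads (258 FPKM) in Control. Its log2 FPKM ratio was -0.40 and its reads ratio 0.792 (0.721 to 0.871), with an FDR of 9.95e-06. The intervals of *sip-1* and *hsp-12.2* overlapped each other and were clear of those of *hsp-12.3* and *hsp-12.6*.

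Most markers of oocytes and the germline were also lower with AbaPep#07. Of the 10 markers, among them the vitellogenin receptor gene *rme-2* and the oocyte maturation genes *oma-1* and *oma-2*, 9 passed the FDR threshold on the lower side and 1, *perm-2*, on the higher side. Among all genes with at least 100 reads over both libraries, 19.2% were lower by the FDR alone. The 10 markers had 3241 to 21139 reads per library, and with more reads a smaller ratio passes the FDR. That share is therefore not one from genes of like depth. The median log2 FPKM ratio of the 10 markers was -0.28, with a range of -0.43 to 0.00, and none was at 0 reads. Their summed level was 3254 TPM (a length-corrected share of all transcripts) with AbaPep#07 and 3375 TPM in Control, the sum being held up by *perm-2* with 2009 and 1924 TPM. Of 7 early embryo markers, 2 passed the FDR threshold on the lower side, *mex-5* and *mex-6*, and 1, *skn-1*, on the higher side. This list says little about embryos, since *med-1* had 1 read in each library and *end-1* had 5 with AbaPep#07 and 1 in Control. By FPKM the germline falls were as large as that of *sip-1* for *gld-1* (-0.43), *glh-1* (-0.42) and *pgl-1* (-0.35). By reads *sip-1* had a log2 ratio of -0.30, and *cbd-1* (-0.33) and *rme-2* (-0.32) also fell at least as far. The remaining markers fell less or rose. Falls also occurred outside this list, as in the intestine gene *vha-6* (-0.29) and the muscle gene *myo-3* (-0.27). By the FDR, 4 of 6 intestine markers were higher and 1 lower, and 3 of 9 muscle markers were higher and 4 lower. Among genes with at least 100 reads, 19.9% were higher by the FDR alone. The part of oocytes and germline in the *sip-1* and *hsp-12.2* values was not tested.

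Higher with AbaPep#07 were *hsp-17* and *hsp-25*. The gene *hsp-17* had 3592 reads (680 FPKM) with AbaPep#07 and 2832 reads (552 FPKM) in Control, a log2 FPKM ratio of 0.30. Its reads ratio of 1.28 (1.22 to 1.34) passed the FDR threshold (2.52e-21). The muscle gene *hsp-25* had 1963 reads (132 FPKM) with AbaPep#07 and 1611 reads (106 FPKM) in Control, a log2 FPKM ratio of 0.31 and a reads ratio of 1.23 (1.15 to 1.31) with an FDR of 1.17e-08. Neither came near 2-fold, and their intervals overlapped.

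Body wall muscle markers moved in both directions. Of 9 markers, 4 passed the FDR threshold on the lower side and 3 on the higher side. The shares among genes with at least 100 reads were 19.2% and 19.9%. The 9 markers had a median log2 FPKM ratio of -0.03, and their summed level was 1711 TPM with AbaPep#07 and 1758 TPM in Control. The lower ones were the thick and thin filament genes *myo-3*, *lev-11*, *unc-15* and *unc-54*. The higher ones had log2 FPKM ratios of 0.22 for *atn-1* (alpha-actinin), 0.32 for *unc-97* (a LIM protein) and 0.03 for *deb-1* (vinculin), the last being 0.18 by reads. The twitchin gene *unc-22*, with -0.03, and the troponin I gene *unc-27*, with -0.02, passed on neither side. The part of body wall muscle in the *hsp-25* value was not tested.

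The reads of *hsp-43* and *hsp-12.1* did not separate the libraries. The gene *hsp-43* had 2852 reads (123 FPKM) with AbaPep#07 and 2764 reads (119 FPKM) in Control, a reads ratio of 1.04 with an interval of 0.987 to 1.10 and an FDR of 0.307. The gene *hsp-12.1*, annotated to the muscle dense body, had only 49 reads (12.45 FPKM) with AbaPep#07 and 53 reads (13.95 FPKM) in Control, and its ratio of 0.933 had a wide interval of 0.619 to 1.40 (FDR of 0.849). A fall as large as that of *hsp-12.3* or *hsp-12.6* lay outside the interval of *hsp-12.1*, but a difference of the size seen in *sip-1* was not detectable at this depth.

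By the FDR threshold alone 4 members were lower, 2 higher and 2 neither. All 8 had at least 100 reads over both libraries, and among the genes with that many reads 19.2% were lower and 19.9% higher by the FDR alone. Reads over both libraries ran from 102 for *hsp-12.1* to 26729 for *sip-1*, and with more reads a smaller ratio passes. The shares are therefore not from genes of like depth. The median log2 FPKM ratio of the 8 genes was -0.25, against -0.02 over all genes, with 5 genes below a ratio of 1 and 3 above it. Under a culture coefficient of variation set to 0.1 in edgeR's exact test, the adjusted p of *hsp-12.2*, *sip-1*, *hsp-17* and *hsp-25* lay between 0.582 and 0.820, so none of these 4 differences was called there. Coefficients below 0.1 were not tried.

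Levels per length spanned a wide range and were led by *sip-1*. In the AbaPep#07 library *sip-1* stood at 1744 FPKM, 2.57 times the level of *hsp-17*, and in Control at 2214 FPKM, 4.01 times that level. It ranked 117th of all genes by TPM with AbaPep#07 and 102nd in Control. The order below it was *hsp-17*, *hsp-12.2*, *hsp-25*, *hsp-43*, *hsp-12.6*, *hsp-12.1* and *hsp-12.3* with AbaPep#07, and *hsp-17*, *hsp-12.2*, *hsp-43*, *hsp-25*, *hsp-12.6*, *hsp-12.3* and *hsp-12.1* in Control. With AbaPep#07 the counting intervals of *hsp-25* (126 to 137 FPKM) and *hsp-43* (118 to 127 FPKM) overlapped, and so did those of *hsp-12.1* (9.21 to 16.46 FPKM) with both *hsp-12.6* (12.26 to 17.3 FPKM) and *hsp-12.3* (6.98 to 11.5 FPKM). In Control no 2 neighbours in this order by FPKM overlapped. Part of this order changes with the length used for scaling.

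Summed over the 8 genes, the level was 2508 TPM with AbaPep#07 and 2762 TPM in Control, a ratio of 0.908, with an interval of 0.892 to 0.926 from the summed reads. By FPKM the ratio of the sums was 0.872. The sum is mostly *sip-1*, which made up 60.0% of it with AbaPep#07 and 66.3% in Control. Without *sip-1* the other 7 genes summed to 1004 TPM with AbaPep#07 and 930 TPM in Control, a ratio of 1.08. The pair of *hsp-12.3* and *hsp-12.6* together contributed 20.4 TPM with AbaPep#07 and 62.5 TPM in Control, a small share of the total in both.

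**Figure D2:**
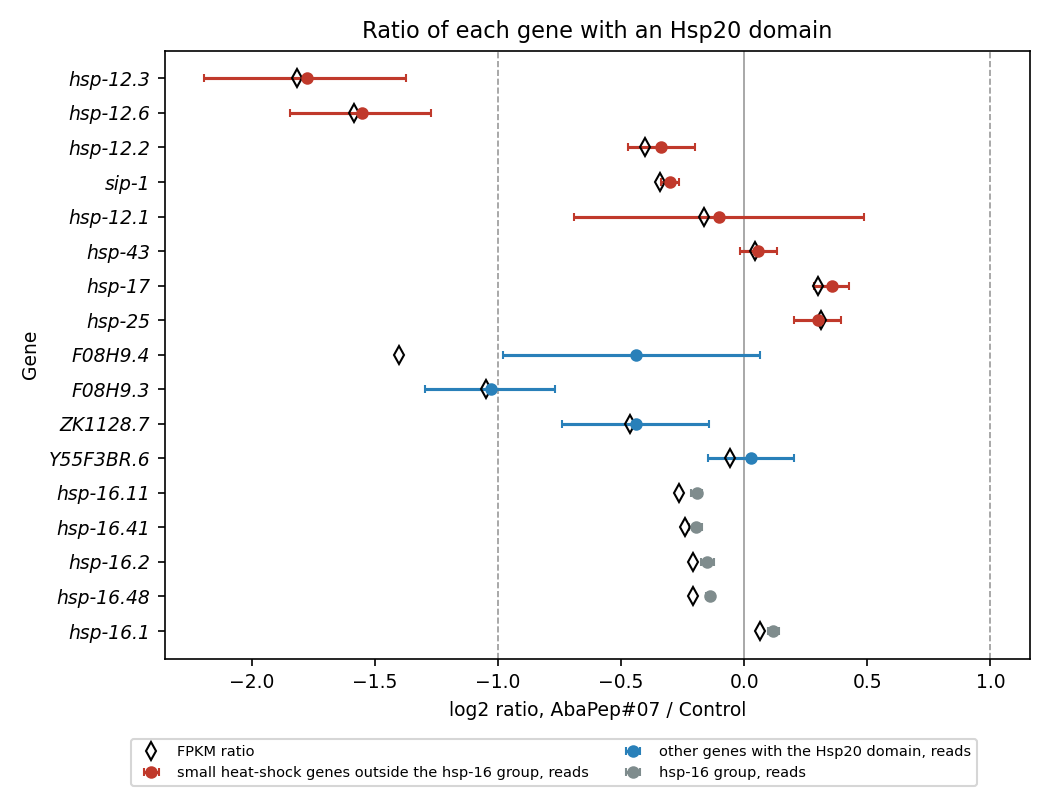
log2 ratio of AbaPep#07 to Control for the 17 genes with an Hsp20 domain; filled points are reads scaled by library total with exact 95% counting intervals, open diamonds are FPKM ratios, and dashed lines mark 2-fold. The intervals of *hsp-12.3* and *hsp-12.6* lie wholly below -1, and for F08H9.4 the FPKM ratio (-1.40) stands far from the reads ratio (-0.44).

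The remaining genes with the same domain were set beside the 8. Of 4 such genes outside the *hsp-16* group, 2 were lower by the FDR, F08H9.3 and ZK1128.7, and 0 were higher. F08H9.3 had 181 reads with AbaPep#07 and 373 in Control, a log2 FPKM ratio of -1.05 that met both thresholds (FDR of 1.03e-14), although its reads ratio of 0.490 had an interval of 0.408 to 0.586 that reached past 0.5. F08H9.4 had a lower FPKM ratio (-1.40) on fewer reads, 55.5 with AbaPep#07 and 76.0 in Control, but these were not whole numbers, the reads ratio on the log2 scale was only -0.44, and the FDR was 0.233. ZK1128.7 had a log2 FPKM ratio of -0.47 and Y55F3BR.6 one of -0.06. Over the 17 genes with the domain, 3 were called lower by both thresholds and 0 higher, where 1.43% of all genes were called lower and 2.10% higher. By the FDR alone 10 were lower, 3 higher and 4 neither, and 4 of the 10 belonged to the *hsp-16* group. Among all genes with at least 100 reads, 19.2% were lower and 19.9% higher by the FDR alone.

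The *hsp-16* genes were far more abundant in both libraries. The 5 found in the table summed to 32416 TPM with AbaPep#07 and 35177 TPM in Control, 12.9 and 12.7 times the sum of the 8 genes described here. Their log2 FPKM ratios ran from -0.27 to 0.06, with 4 lower and 1 higher by the FDR and none past 2-fold. Each had at least 20619 reads in each library, a depth at which small ratios pass the FDR. The reads of *hsp-16.1* and *hsp-16.11* were not whole numbers, so their split between similar genes is uncertain.

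The chaperones that take over from small heat-shock proteins, and the regulators of the heat-shock genes, showed no call past 2-fold. Of 16 such genes in the table, 7 were lower by the FDR, 5 higher and 4 neither, and their median log2 FPKM ratio was -0.01. Among all genes with at least 100 reads, 19.2% were lower and 19.9% higher by the FDR alone. Several of the 16 had far more reads, up to 222499 for F44E5.4 with AbaPep#07, and at such depth small ratios pass. The gene of the heat shock factor itself, *hsf-1*, had 1771 reads with AbaPep#07 and 1790 in Control, a ratio of 0.998 (0.934 to 1.07). The constitutive Hsp70 gene *hsp-1* had a ratio of 0.996 (0.988 to 1.005), and *hsp-110*, whose protein helps Hsp70 to take aggregates apart, a ratio of 1.03 (1.02 to 1.04). The widest ratios were those of the co-chaperone gene *sti-1*, with a log2 FPKM ratio of -0.38, and of the inducible Hsp70 gene F44E5.5, with 0.27 on reads that were likewise not whole numbers. The transcript of *daf-16*, which codes for the FOXO factor, had a log2 FPKM ratio of -0.11.

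**Figure D3:**
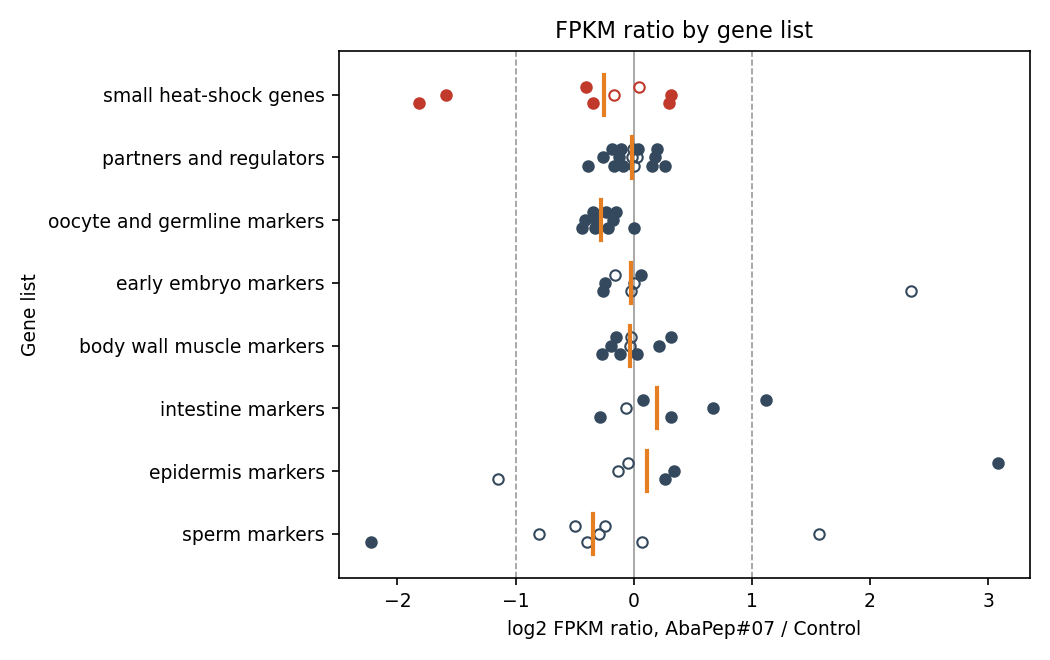
log2 FPKM ratio of AbaPep#07 to Control for every gene of each list, with lists down the page; filled points passed the FDR threshold, open points did not, orange bars are list medians and dashed lines mark 2-fold. The small heat-shock genes have a median of -0.25 and 2 genes past the lower line, while the partners and regulators stay between -0.38 and 0.27.

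Other tissue markers were read as a check of the whole-nematode label. Muscle, intestine and germline genes were abundant in both libraries, whereas the 8 sperm markers summed to 12.4 TPM with AbaPep#07 and 15.1 TPM in Control, 1 of them lower by the FDR on few reads (*spe-11*, 3.07 reads with AbaPep#07 and 14.1 in Control) and 7 neither. Of 6 intestine markers 4 were higher by the FDR and 1 lower, with 1 call past 2-fold, the microvillar actin gene *act-5* (log2 FPKM ratio of 1.12). Among genes with at least 100 reads, 19.9% were higher and 19.2% lower by the FDR alone, and 2.10% of all genes were called higher. Of 6 epidermis markers, 3 were higher and 0 lower, among them *bli-1*, which had only 9 reads with AbaPep#07 and 1 in Control. On these few reads *bli-1* (log2 FPKM ratio of 3.09) and *spe-11* (-2.23) also passed both thresholds. The part of the intestine or epidermis in the values of the small heat-shock genes was not tested.

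For genes this short, the FPKM value leans on the length used to scale it. Dividing the reads by the FPKM gives the length the counting program used, and for *hsp-12.3*, *hsp-12.6* and *sip-1*, each with 1 annotated transcript, it was 285 bases shorter than the transcript with AbaPep#07 and 295 bases shorter in Control. For *hsp-12.2* the implied length was 209 bases with AbaPep#07 and 200 bases in Control, out of a transcript of 518 bases. The implied length was longer with AbaPep#07 for 7 of the 8 genes, by 8.81 to 10.7 bases, so that the FPKM ratio fell below the reads ratio, by 0.07 on the log2 scale for *hsp-12.2* and 0.04 for *sip-1*. The exception was *hsp-25*, with several transcripts of different length, where the implied length was 776 bases with AbaPep#07 and 783 bases in Control. None of these shifts moved a member across a threshold, but levels per length of the shortest genes are less certain than their reads: scaled by the full annotated transcript, *hsp-43* stood above *hsp-12.2* in both libraries, whereas by FPKM *hsp-12.2* stood above *hsp-43*. With AbaPep#07 the same scaling also put *hsp-43* above *hsp-25*, *hsp-25* above *hsp-12.2* and *hsp-12.3* above *hsp-12.1*, each the reverse of the order by FPKM. For genes with several transcripts the longest was used, which is 1125 bases for *hsp-25*.

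**Figure D4:**
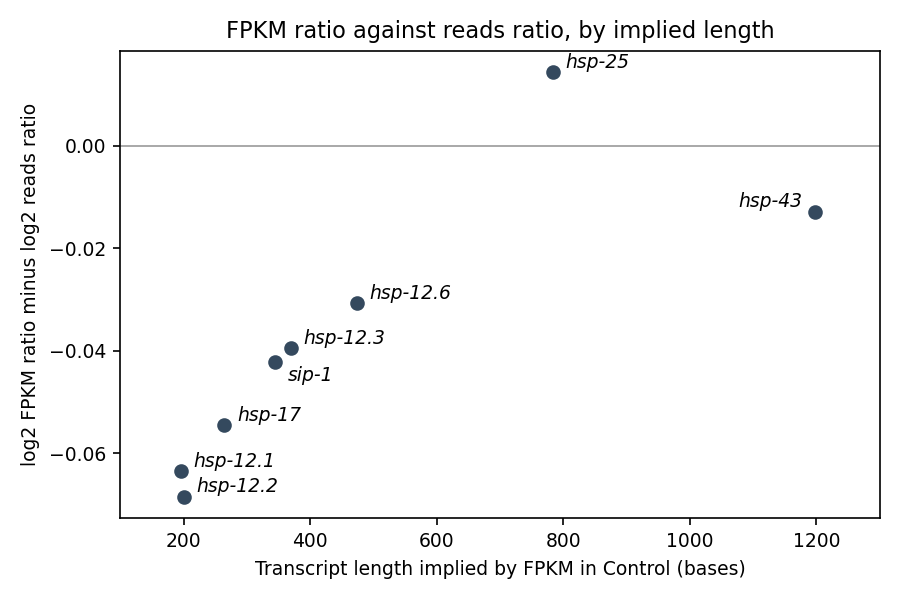
Difference between the log2 FPKM ratio and the log2 reads ratio (AbaPep#07 to Control) of each gene, against the transcript length implied by its FPKM in Control, in bases. The difference is -0.07 for *hsp-12.2* and -0.01 for *hsp-43*, and only *hsp-25* lies above 0.

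Overlap of exons with protein-coding genes on the other strand was limited. Noncoding genes on that strand also overlap *sip-1* (F43D9.8), *hsp-25* (C09B8.10) and *hsp-12.1* (21ur-14367), and the extent of these overlaps was not measured. The library protocol names no step that marks the strand, so reads of overlapping exons could come from either gene. No protein-coding gene overlaps *hsp-12.1*, *hsp-12.3*, *hsp-12.6*, *hsp-43* or *sip-1*. The exons of *hsp-17* share 73 of 560 bases (13.04%) with F52E1.14, which was also higher with AbaPep#07 (2852 reads with AbaPep#07 and 2332 in Control, log2 FPKM ratio of 0.29). The shared part was 53 of 1134 bases in *hsp-25*, with *ipp-5* (108 reads with AbaPep#07 and 135 in Control), and 11 of 518 bases in *hsp-12.2*, with C14B9.8. How many reads of *hsp-17* came from the shared bases was not tested.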

How the data were processed

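Total RNA of whole nematodes was selected for polyadenylated RNA, and paired reads came from the BGISEQ-500. Per the paper's methods and the submitters' processing notes, the authors aligned cleaned reads to the coding gene set with Bowtie2 (2.2.5) and quantified genes with RSEM (1.2.12), naming WBcel235 as the build. HISAT2 (2.0.4) was used for the genome alignment. The deposited table holds estimated counts of reads without normalization, and FPKM and TPM values rounded by the authors to 2 decimals. It also holds the authors' own comparison (log2 ratio, p-value and FDR), which was not used. 0 columns of values per sample were left unmapped.

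The Audic and Claverie test was computed on reads rounded down, taking 2 times the smaller tail, with the lower tail including and the upper tail excluding the observed count. This form was taken over from earlier work on these data, since the methods do not give it. Benjamini-Hochberg adjustment covered 18510 genes. The FPKM ratio used 0.01 in place of an FPKM of 0. Direction under the FDR alone was taken from the reads ratio. Intervals are exact 95% intervals (binomial split of the reads for a ratio, Poisson for a level). With no replicates, neither edgeR's quasi-likelihood test nor a DESeq2 fit was possible. edgeR 4.0.16 (exact test, assumed dispersion) and DESeq2 1.42.0 (size factors) ran on rounded reads in R 4.3.3, and scipy 1.17.1, pandas 2.3.3, numpy 2.4.6 and matplotlib 3.10.9 under Python 3.11.15 did the rest.

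All members are named. The other genes named come from the *hsp-16* group, the Hsp20 domain annotation, preset lists of partners, regulators and tissue markers, the neighbours of called members and the genes that overlap a member. Within the lists, genes were singled out after their values were seen. The overlapping genes, and the minimum of 100 reads behind the FDR shares, were also chosen then. The members and lists were chosen with earlier results of these data known. Transcript structure is from Ensembl release 115. *hsp-16.49* was not analysed here, and *daf-21* is listed as *hsp-90*.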

Additional observations from a re-analysis of the deposited data

How the results depend on the processing

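Among the 8 genes, 2 were called lower under every scaling tried (reads scaled by the library totals, TPM, TMM, DESeq2 size factors), with 1 FPKM added, with the other form of the upper tail, with a minimum of 20 reads, with Bonferroni adjustment and with edgeR's exact test at a coefficient of variation of 0.1. In edgeR's test the number was 1 at a coefficient of 0.2, where *hsp-12.6* lost its call, and 0 at 0.4. No member was called higher under any of these alternatives. The scalings and the added FPKM changed the ratio alone and kept the FDR of the main test, so they rechecked only the fold threshold. Under them the log2 ratio ran from -1.78 to -1.71 for *hsp-12.3* and from -1.56 to -1.52 for *hsp-12.6*, far from the 2-fold line. The other alternatives changed the FDR alone and kept the FPKM ratio. Over all genes the calls lower and higher were 265 and 388, and they numbered 136 and 182 with 1 FPKM added, 96 and 172 with Bonferroni adjustment, and 144 and 219, 40 and 50, and 1 and 6 at coefficients of 0.1, 0.2 and 0.4. The ratio of the summed level was 0.908 by TPM and 0.872 by FPKM, since the TPM ratio of all genes ran 0.06 higher on the log2 scale. The median log2 ratio of the 8 genes stayed between -0.25 and -0.19 under these scalings, and no gene changed its direction. No paired analysis was possible because each condition has 1 library, and for the same reason no library could be left out. Depth limits *hsp-12.1* most, with 49 reads in the AbaPep#07 library and 53 in the Control library.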
